A study of Mus musculus with 38 samples.

Results

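Omental tumors of the 60577 mouse model of high-grade serous ovarian cancer (HGSOC) were compared 1 day after the last dose of chemotherapy (TP1) with time-matched controls. The comparison held 6 of the 38 libraries of the series, 3 treated and 3 control tumors, chosen by their labels and by no measured value. All 6 tumors came from young adult wild-type female FVB mice that carried 60577 cells, a mouse HGSOC line that gives tumors in the omentum after injection into the peritoneal cavity. The mutations carried by the line are not given in the sources used here. Treated mice received 3 weekly intraperitoneal doses of carboplatin at 20 mg/kg with paclitaxel at 10 mg/kg from day 21 after cell injection, and controls received vehicle. Both groups were collected at day 36. Each library was strand-specific, ribosomal RNA-depleted RNA from the snap-frozen part of 1 omental tumor, the rest of which was fixed, and the tissue was not sorted, so that malignant, stromal, immune and fat cells were measured together. Nothing in the labels pairs a treated with a control mouse. The 7 tumors of the same model at TP2 (day 42, 7 days after the last dose, 3 control and 4 treated) and the 6 TP1 tumors of HGS2 served as points of comparison. HGS2 is another mouse HGSOC line, grown in C57BL/6J mice, dosed in the same way from day 49 and collected at day 64, so that line, host strain and tumor age cannot be told apart between the models.

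Carboplatin forms platinum crosslinks in DNA that stall replication forks, while paclitaxel stabilizes microtubules and holds dividing cells in mitosis. Damaged cells with functional p53 raise its targets, among them the cell cycle inhibitor p21, encoded by Cdkn1a. The omentum is a fatty apron lined by mesothelium and rich in macrophages, phagocytes that clear dying cells, and fibroblasts deposit and remodel collagen matrix where tumor grows in it.

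Library totals ran from 23044286 to 31411918 estimated counts. Levels are given as CPM, counts scaled to a common library total, with TMM library scaling, the tumors always in the order replicates 1, 2 and 3. Since CPM is not corrected for gene length, levels are compared between tumors and not between genes. Tumors of the same group were closer to each other (1 minus the correlation of log2 CPM 0.00596 to 0.0333 over 6 pairs) than tumors of different groups (0.0487 to 0.0761 over 9 pairs). No pair of libraries agreed within sampling noise.

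Some libraries stood apart within their group. The signal recognition particle RNA 7SL took 4.91%, 4.77% and 3.59% of the counts in the controls but 7.87%, 7.99% and 15.4% in the treated tumors, with treated replicate 3 the highest of the 6. Adipocyte markers summed to 168, 193 and 188 CPM in controls and to 331, 2584 and 251 CPM in treated tumors, so that treated replicate 2 held far more fat RNA than the others. The same tumor was the lowest of the treated tumors for many myeloid and protease genes and the highest for B cell markers (751 CPM, against 88.8 and 83.3 CPM). Control replicate 1 was the lowest control for neutrophil, T cell and B cell markers. Markers of tissues that could be cut out with the omentum were low, the pancreatic acinar list summing to 8.57 to 37.7 CPM over the 6 tumors and the liver and gut list to 4.76 to 25.6 CPM. Of the 20 acinar genes tested none was called by edgeR or limma-voom, with 1 at an unadjusted p-value below 0.05 and 7 called higher by DESeq2. Their median log2 fold change was nevertheless 3.93, the treated tumors were all above the controls for 10, and edgeR called 9 higher when only the 2 TP1 groups were fitted and 3 with the acinar mean as a covariate. Of the 3 liver and gut and 2 muscle genes tested none was called by edgeR, limma-voom or DESeq2 and 0 had an unadjusted p-value below 0.05. Defining markers of the labeled tissue were present, as the mesothelial list summed to 4396, 4505 and 4571 CPM and the epithelial list to 2339, 2752 and 2884 CPM in the controls. The part of the fat content, the 7SL share and the control with low immune markers in the results below was not tested, and counts that move by more than 1.5 times without one of these tumors are given for most lists beside their counts.

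**Figure D1:**
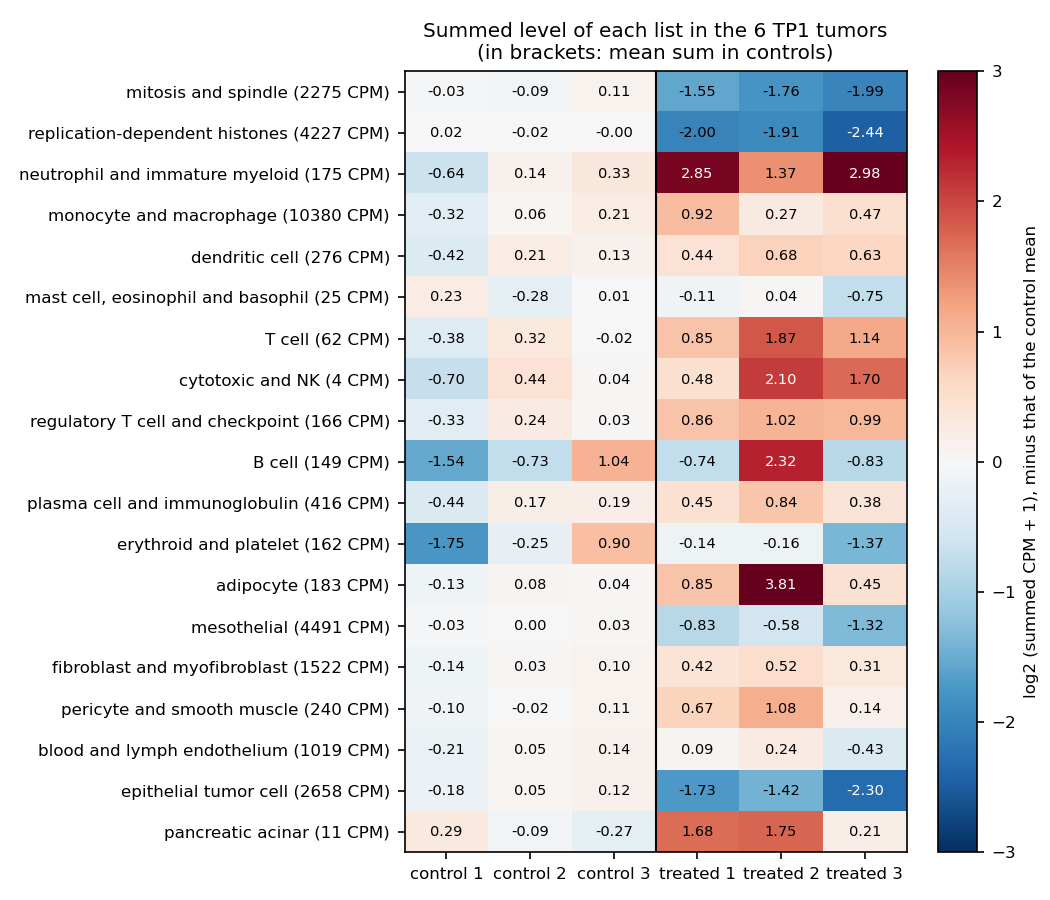
Heat map of summed marker levels in the 6 tumors (columns, 3 control and 3 treated) for 19 gene lists (rows), as log2 of the summed CPM plus 1 minus the same for the mean of the controls, the macrophage sum being mostly fibronectin (Fn1). Histone and epithelial markers were below the controls in all 3 treated tumors, and neutrophil and T cell markers above them. The adipocyte sum stood out in treated replicate 2 alone.

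Levels of a wide range of genes differed between treated and control tumors 1 day after the last dose. No tumor was collected before that dose, so effects of the last and of earlier doses cannot be told apart. Of 16241 genes tested, 1567 were higher and 968 lower in treated tumors, which is 9.65% and 5.96% of all genes and 15.6% in either direction. The counts of called genes in each list below are to be read beside these shares. A gene was called higher or lower where its log2 fold change exceeded 1 in size and its p-value from edgeR's quasi-likelihood test, after Benjamini-Hochberg adjustment, lay below 0.05. In RNA of unsorted tumor tissue, fewer cells of a type and less RNA per cell cannot be told apart. The rises were larger than the falls, with a median log2 fold change of 1.66 for the genes called higher and -1.42 for those called lower, and 511 genes rose but 145 fell by more than 2 on the log2 scale. The 3 treated tumors were all above the 3 controls for 4287 genes (26.4% of those tested) and all below for 4770 (29.4%). Among the called genes, the groups did not overlap for 1460 of the 1567 higher (93.2%) and 963 of the 968 lower (99.5%). Treated replicate 2 was the treated tumor nearest to the controls for 672 (42.9%) of the higher and 579 (59.8%) of the lower genes.

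Genes that rose were largely ones that the tumor line itself does not express in culture. Of the 1567 higher genes, 987 (63.0%) were under 1 CPM in both monoculture libraries of 60577, compared with 130 (13.4%) of the lower genes and 21.2% of all genes tested. The share for genes that were not called was 17%. Median tumor levels also differed, at 7.45 CPM for higher, 12.2 CPM for lower and 19.8 CPM for all genes, and the part of low abundance in these shares was not tested. Median exon lengths were 3840 bases for higher and 4247 bases for lower genes and median GC contents 50.5% and 49.6%.

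**Figure D2:**
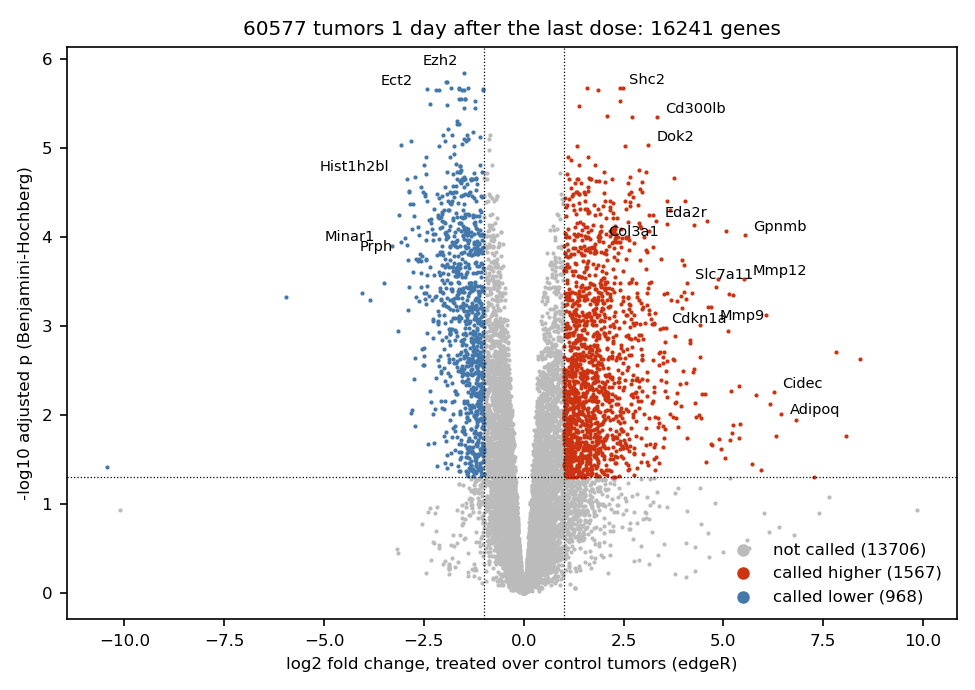
Log2 fold change of treated over control 60577 tumors at TP1 (x axis) against -log10 of the adjusted p-value from edgeR (y axis) for 16241 genes, with 1567 called higher in red, 968 called lower in blue and 13706 not called in gray. The labeled lower genes are Ezh2, Ect2, Hist1h2bl, Minar1 and Prph. Those labeled in the higher arm include the p53 targets Cdkn1a and Eda2r, the proteases Mmp9 and Mmp12, Gpnmb, Slc7a11, Col3a1, Shc2 and the adipocyte gene Adipoq.

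Among the genes with the smallest adjusted p-values in the higher direction were Shc2, Abcg1 and Anpep. Shc2, an adaptor of receptor tyrosine kinases, was at 3.50, 4.82 and 3.88 CPM in controls and at 21.7, 20.9 and 22.6 CPM in treated tumors, a log2 fold change of 2.42 (SE 0.18, adjusted p = 2.1e-06). Abcg1, which exports cholesterol from macrophages, was at 16.2, 24.1 and 21.5 CPM in controls and at 73.0, 72.2 and 78.9 CPM in treated tumors (log2 1.86). Anpep, the cell surface aminopeptidase CD13 of myeloid and stromal cells, was at 29.0, 37.9 and 39.2 CPM in controls and at 216, 133 and 213 CPM in treated tumors (log2 2.41). For all 3 genes every treated tumor lay above every control. A4galt, a glycosyltransferase, rose by 1.59, the prostaglandin receptor Ptger3 by 2.48 and the purinergic channel P2rx4 by 1.38 on the log2 scale. The 15 falling genes with the smallest adjusted p-values were largely genes of replication and division, among them Ezh2, Kif20b, Cdca7, Atad2, Birc5, Pola1, Topbp1, Mcm7, Racgap1 and Kif11. Among genes above 10 CPM, Minar1 showed the largest fall, from 14.4, 20.8 and 24.9 CPM to 2.21, 2.75 and 1.08 CPM (log2 -3.30). The intermediate filament Prph (-2.97), the chloride channel Cftr (-2.92) and the nucleoside transporter Slc28a3 (-2.86) were also among the largest falls, together with replication-dependent histones.

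Targets of p53 rose, led by Cdkn1a. Cdkn1a (chr17:29090976-29100727, GRCm38, plus strand) was at 16.6, 14.5 and 16.7 CPM in controls and at 183, 175 and 179 CPM in treated tumors. The groups were far apart and the treated tumors close to each other, with a log2 fold change of 3.49 (SE 0.66, adjusted p = 0.00105). Mdm2, the ubiquitin ligase that restrains p53 (chr10:117688875-117710758, minus strand), was at 39.0, 45.8 and 45.5 CPM and then at 107, 91.4 and 132 CPM (log2 1.35, SE 0.17, adjusted p = 7e-05). Bax, which opens the outer mitochondrial membrane during apoptosis, was at 21.2, 22.7 and 21.8 CPM in controls and at 55.2, 51.6 and 64.1 CPM in treated tumors (log2 1.38, SE 0.16, adjusted p = 3.3e-05). Neither gene overlapped between groups.

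Of 35 p53 targets tested, 16 were higher and 2 lower, with a median log2 fold change of 0.46 against -0.00208 over all genes. The lower count was 1 without control replicate 1 or without any 1 of the treated tumors. The death receptor Eda2r was at 2.65, 1.80 and 1.14 CPM and then at 21.9, 25.1 and 9.0 CPM (log2 3.32, SE 0.43, adjusted p = 6.7e-05). Gdf15, a secreted stress cytokine, rose from 1.59, 0.964 and 1.39 CPM to 5.12, 6.74 and 4.33 CPM (log2 2.03), and Sesn2, an inhibitor of mTORC1, from 10.5, 11.2 and 10.4 CPM to 30.2, 38.5 and 31.2 CPM (log2 1.64). Every treated tumor exceeded every control for these genes. Ccng1, the target with most counts, rose from 56.4, 62.1 and 66.3 CPM to 144, 153 and 130 CPM (log2 1.21). Phlda3, Zmat3, Plk3, Aen, Ephx1 and the apoptotic effector Bbc3 rose by 1.08 to 1.32. Not every target moved: log2 fold changes were 0.84 for the death receptor Fas (adjusted p = 0.0051, below the fold required), 0.46 for Sesn1, -0.15 for Rrm2b, -0.19 for Pmaip1 and -0.30 for Btg2. The noncoding RNA Pvt1 was called lower (log2 -1.62), but it stood at 112 CPM in control replicate 1 and at 17.5 and 14.5 CPM in the other controls, against 13.4 to 19.8 CPM in treated tumors.

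Genes that repair platinum crosslinks did not rise. Of 24 crosslink and adduct repair genes 5 fell and none rose, among them the Fanconi anemia ubiquitin-conjugating enzyme Ube2t (log2 -2.07), Fancd2 (-1.22) and the translesion polymerase Polh (-1.10). The excision repair factors Ddb2 (-0.58) and Xpc (-0.04) were not called. Of 19 homologous recombination genes 8 fell, with a list median of -0.93, and the 3 treated tumors were all below the controls for 17. Brca2, a mediator of homologous recombination, was at 59.3, 44.9 and 44.8 CPM in controls and at 19.6, 21.4 and 14.5 CPM in treated tumors (log2 -1.42). The resection nuclease Exo1 (-1.81) and Bard1 (-1.55) fell too, while Brca1 did not pass the test (-0.32, adjusted p = 0.15).

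**Figure D3:**
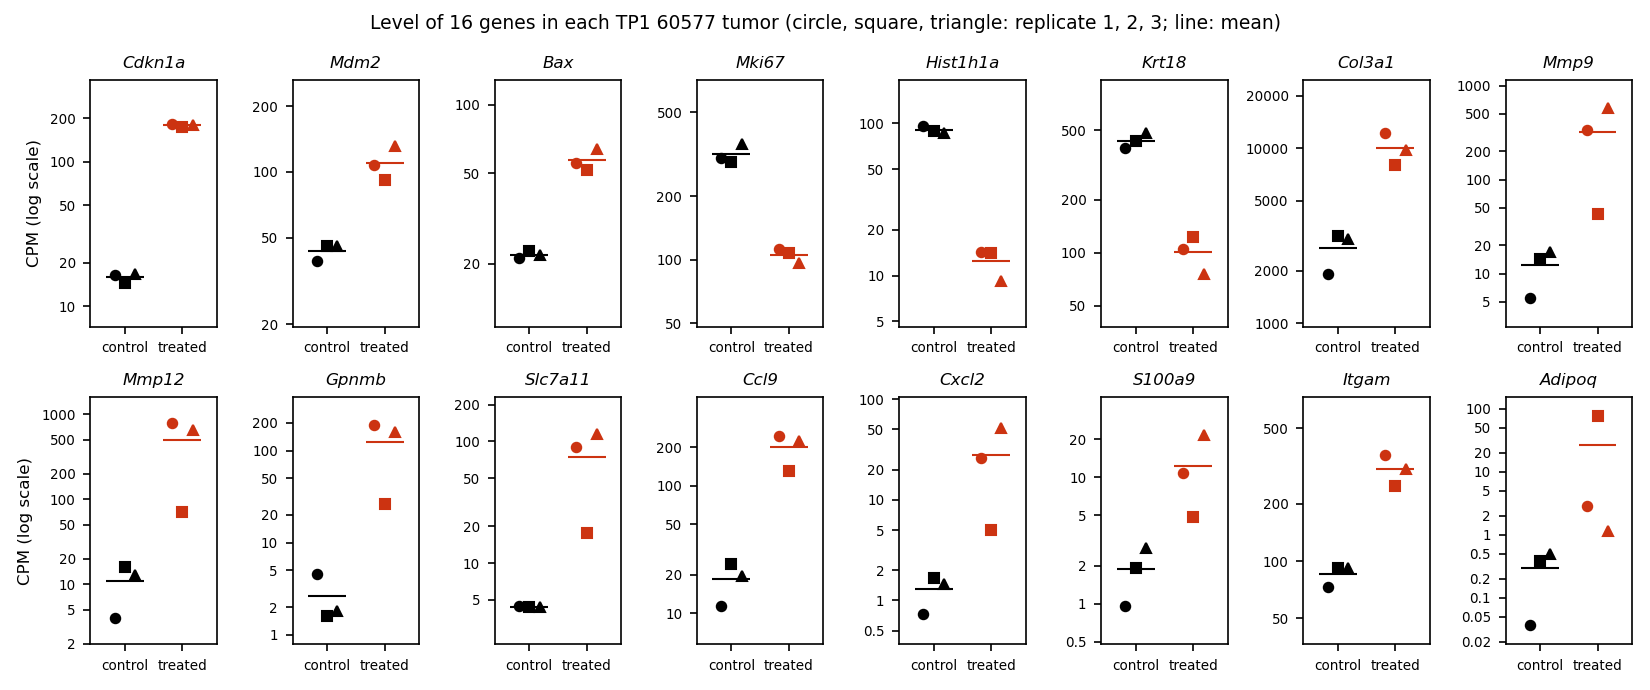
CPM on a log axis for 16 genes in the 3 control and 3 treated tumors at TP1, with circles, squares and triangles for replicates 1, 2 and 3 and a line at each group mean. Cdkn1a, Mdm2 and Bax sit in tight, separate groups, whereas Mmp12, Mmp9 and Gpnmb spread widely among treated tumors, with replicate 2 the lowest.

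The proliferation program fell as a block. Of 45 genes of mitosis and the spindle 44 were lower and none higher, with a median log2 fold change of -1.72, and for all 45 the 3 treated tumors were below the 3 controls. Mki67, the proliferation antigen (chr7:135689784-135716361, minus strand), was at 303, 291 and 355 CPM in controls and at 112, 107 and 96.5 CPM in treated tumors (log2 -1.59, SE 0.16, adjusted p = 1.6e-05). The cytokinesis exchange factor Ect2 was at 65.5, 61.5 and 70.7 CPM and then at 13.4, 13.3 and 9.91 CPM (log2 -2.43, SE 0.19, adjusted p = 2.2e-06). Kif11, the motor that separates spindle poles, was at 93.8, 85.8 and 96.5 CPM and then at 23.9, 21.1 and 15.6 CPM (log2 -2.19, SE 0.17, adjusted p = 2.2e-06). No treated tumor reached a control for any of these genes, and treated replicate 3 was the lowest for each. Prc1, a microtubule crosslinker of the central spindle, fell by 2.07, Ube2c, an E2 enzyme of the anaphase-promoting complex, by 2.05, cyclin B1 (Ccnb1) by 2.26 and topoisomerase Top2a by 1.74 on the log2 scale.

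Replication genes followed. Of 42 DNA replication genes 32 fell and none rose (median -1.31), and the treated tumors were all below the controls for 41. Mcm6, a subunit of the replicative helicase, was at 177, 206 and 200 CPM in controls and at 51.5, 59.3 and 43.9 CPM in treated tumors (log2 -1.92). Orc1, of the origin recognition complex, was at 7.48, 7.59 and 7.70 CPM and then at 2.08, 2.45 and 1.96 CPM (log2 -1.81). Rfc3, of the clamp loader, was at 27.8, 22.9 and 23.5 CPM and then at 10.3, 12.2 and 9.54 CPM (log2 -1.21). The groups were separate for all 3, and the sliding clamp Pcna fell by 1.02. Replication-dependent histones, which are transcribed in S phase, showed the largest shift of these lists, with 51 of 53 tested lower and a median of -2.24. Their summed level was 4291, 4168 and 4223 CPM in controls and 1059, 1122 and 778 CPM in treated tumors. Hist1h2bl was at 38, 33 and 34.9 CPM and then at 5.32, 5.05 and 3.50 CPM (log2 -2.93, SE 0.32, adjusted p = 2.2e-05), and linker histone Hist1h1a at 96.1, 89.1 and 86.6 CPM and then at 14.3, 14 and 9.25 CPM (log2 -2.85).

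Genes of the G1 phase were mostly not called, with 2 of 18 lower. Cyclin D1 (Ccnd1, log2 0.39), cyclin D2 (Ccnd2, 0.85), cyclin E1 (Ccne1, -0.20) and Cdkn2a (-0.57) did not pass. The cyclin-dependent kinase inhibitor Cdkn1c went the opposite way to its relative Cdkn1a, from 30.6, 46.5 and 49.3 CPM to 6.73, 8.96 and 5.58 CPM (log2 -2.57), with no overlap between groups. The transcription factor Mycn fell from 17.3, 15.4 and 16.1 CPM to 4.45, 5.65 and 4.00 CPM (log2 -1.79).

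Promoters are printed for 3 of the mitosis genes and 3 of the replication genes above, because members of these lists moved together, and the 6 were chosen among the genes whose windows hold the motif searched. The sequences are the 100 bases before the RefSeq transcription start on the strand of the gene (GRCm38.p6). For the mitosis genes the capitals mark TTTGAA, the core of the cell cycle genes homology region, and CCAAT, on either strand.
Kif11, chr19:37376282-37376381, plus strand: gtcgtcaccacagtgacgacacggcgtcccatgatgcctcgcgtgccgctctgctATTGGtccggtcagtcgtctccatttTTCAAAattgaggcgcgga
Prc1, chr7:80294376-80294475, plus strand: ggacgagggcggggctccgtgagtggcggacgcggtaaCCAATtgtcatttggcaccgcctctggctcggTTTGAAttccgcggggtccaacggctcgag
Ube2c, chr2:164769829-164769928, plus strand: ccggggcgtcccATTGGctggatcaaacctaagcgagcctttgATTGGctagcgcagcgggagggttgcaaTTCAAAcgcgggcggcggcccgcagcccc
For the replication genes the capitals mark TTTGGCGC or TTTCGCGC, forms of the E2F element, on either strand.
Mcm6, chr1:128359706-128359805, minus strand: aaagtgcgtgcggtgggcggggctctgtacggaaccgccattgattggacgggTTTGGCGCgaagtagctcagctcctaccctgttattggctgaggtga
Orc1, chr4:108579354-108579453, plus strand: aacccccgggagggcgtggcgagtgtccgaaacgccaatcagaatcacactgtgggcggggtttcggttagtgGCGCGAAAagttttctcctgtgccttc
Rfc3, chr5:151651209-151651308, minus strand: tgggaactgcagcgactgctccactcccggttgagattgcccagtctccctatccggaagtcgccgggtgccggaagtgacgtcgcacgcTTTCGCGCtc
Windows from 250 bases before to 50 bases after the start were available for 36 of the 45 mitosis genes (38 windows). Both TTTGAA and CCAAT occurred, on either strand, in 24 of these windows (63.2%), compared with 5.02% of the 14373 windows of the genes tested and 6.95% of all 32851 promoter windows. The share was 11.1% for all genes called lower and 3.88% for those called higher. An E2F element was present in 11 of the 38 windows of 33 replication genes (28.9%), in 1.36% of the windows of the genes tested and in 0.813% of all promoters. A match describes a sequence and not a bound site.

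Markers of the tumor epithelium fell. Of 18 epithelial tumor cell genes tested, 10 were lower and none higher, with a median log2 fold change of -1.16, and their sum was 802, 996 and 540 CPM in treated tumors. Prom1 (log2 2.62, adjusted p = 0.059) and the transcription factor Sox17 (1.71, adjusted p = 0.067) of the same list had positive values that did not pass, and 2 members were called higher by DESeq2 or without treated replicate 3. Keratin 18 (Krt18) was at 395, 431 and 482 CPM in controls and at 104, 123 and 75.9 CPM in treated tumors (log2 -2.11, SE 0.31, adjusted p = 0.00016). Krt7, a keratin of ovarian carcinoma, was at 287, 333 and 363 CPM and then at 69.3, 119 and 61.1 CPM (log2 -1.98). The adhesion molecule Epcam was at 23.3, 31.8 and 34.8 CPM and then at 11.5, 16.3 and 5.66 CPM (log2 -1.43). The groups were separate for each, with treated replicate 3 lowest and treated replicate 2 highest. The epithelial transcription factor Elf3 fell by 2.43, Krt17 by 2.27, Krt14 by 2.13, Krt8 by 1.92, Krt19 by 1.84 and E-cadherin (Cdh1) by 1.06. Mesothelial genes fell as well, 8 of 14 tested with a median of -1.25. Upk3b, a mesothelial membrane protein, went from 1267, 1381 and 1397 CPM to 434.8, 565.5 and 359 CPM (log2 -1.57), Muc16, which encodes CA125, fell by 1.44 and mesothelin (Msln) by 1.27. When the variance was estimated over both tumor models in a single fit, only 1 gene of each of these lists was still called.

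Interstitial matrix genes rose while the basement membrane list stayed near the background. Of 11 fibrillar collagens and their relatives 6 were higher and none lower, with a median log2 fold change of 1.06. Col3a1 (chr1:45311538-45349706, plus strand), a main fibrillar collagen of loose and repairing tissue, was at 1910.5, 3158 and 3048 CPM in controls and at 12302, 8076 and 9796 CPM in treated tumors (log2 1.89, SE 0.26, adjusted p = 0.00011). Col1a1, of collagen I, was at 2224, 3896.5 and 4241 CPM and then at 10307, 5558 and 9440 CPM (log2 1.29, SE 0.29, adjusted p = 0.0036). Col24a1, a minor fibrillar collagen, was at 8.19, 7.67 and 8.98 CPM and then at 46.0, 26.8 and 35.5 CPM (log2 2.12). Every treated tumor lay above every control for the 3 collagens, with treated replicate 2 the lowest of the treated. Col5a1 (1.31), Col5a3 (1.39) and Col1a2 (1.06) rose too. Of 22 basement membrane genes 1 rose (Col15a1, 1.31) and 1 fell, and of 21 collagen-modifying genes 1 rose, the procollagen C-proteinase Bmp1 (1.04). Both higher calls were lost without control replicate 1 or treated replicate 1. Without treated replicate 3, 3 basement membrane genes were called higher, and 2 were called lower without treated replicate 1 or 2. Collagen-modifying genes called higher numbered 2 without control replicate 3 and 3 without treated replicate 2.

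Matricellular and glycoprotein genes rose in part. Of 21 tested 9 rose and 1 fell, with a median of 0.81, and the lower call (Eln) was lost without any 1 of the controls or without treated replicate 1 or 3. Fbln1, a fibulin of elastic fibers, was at 87.0, 81.1 and 86.9 CPM in controls and at 248, 290 and 308 CPM in treated tumors (log2 1.73). Tenascin C (Tnc), made during repair, was at 258, 207 and 277 CPM and then at 753, 468 and 616 CPM (log2 1.31). Both were separate between groups. Osteopontin (Spp1) was called higher (log2 1.84) but overlapped, at 92.8, 182 and 203.5 CPM in controls and at 835, 119 and 756 CPM in treated tumors, and its adjusted p-value was 0.0698 to 0.0906 without control replicate 1, treated replicate 1 or treated replicate 3 by edgeR. Elastin (Eln) fell from 428, 574 and 574 CPM to 176, 314 and 108 CPM (log2 -1.40, adjusted p = 0.048), and fibronectin (Fn1) overlapped between groups and was not called, at 6061, 7449 and 8932 CPM and then at 14516, 7817 and 10233 CPM. Without control replicate 1, 5 genes of the list were called higher. Among 19 proteoglycans and hyaluronan genes 4 rose and none fell. Versican (Vcan), a large proteoglycan that binds hyaluronan, was at 94.4, 156 and 192 CPM in controls and at 590.5, 279 and 664 CPM in treated tumors (log2 1.79, SE 0.32, adjusted p = 0.00065), and lumican (Lum) rose by 2.30.

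Matrix proteases were among the genes that rose furthest, with 14 of 28 tested higher, none lower and a median of 1.20. Mmp12, the macrophage elastase (chr9:7344381-7369499, plus strand), was at 3.98, 16 and 12.9 CPM in controls and at 787.5, 70.7 and 641 CPM in treated tumors (log2 5.51, SE 0.88, adjusted p = 0.0003). Mmp9, gelatinase B of neutrophils and macrophages (chr2:164940780-164955850, plus strand), was at 5.46, 14.4 and 16.9 CPM and then at 336, 43.3 and 575 CPM (log2 4.70, SE 0.83, adjusted p = 0.00062). Mmp3, stromelysin of fibroblasts, was at 1.51, 1.26 and 2.57 CPM and then at 28.8, 8.32 and 78.1 CPM (log2 4.42). All treated tumors exceeded all controls, although treated replicate 2 was several-fold below the other treated tumors for each. Adamts15, a versican-cleaving protease, was by contrast alike in the treated tumors, at 8.52, 16.3 and 12.5 CPM in controls and at 100.05, 89.5 and 99.2 CPM after treatment (log2 2.95). Gelatinase A (Mmp2) was at 176, 247 and 281 CPM and then at 830, 694 and 849 CPM (log2 1.75). The inhibitor Timp1 was at 42.4, 77.2 and 91.8 CPM and then at 265, 91.9 and 312 CPM (log2 1.66), so that treated replicate 2 was at the level of the highest control. Mmp8 rose by 3.57, the plasminogen activator inhibitor Serpinb2 by 2.93, Mmp19 by 2.29, Adamts5 by 1.82 and urokinase (Plau) by 1.64. The count was 9 without control replicate 1.

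Fibroblast and pericyte genes rose in part. Of 20 fibroblast genes 5 were higher and 1 lower (median 0.59). The growth factor receptor Pdgfra was at 85.5, 96.1 and 99.8 CPM in controls and at 232, 231 and 268 CPM in treated tumors (log2 1.38, SE 0.14, adjusted p = 1.6e-05), with no overlap and little spread. Dermatopontin (Dpt) rose by 3.27, Ly6a by 2.82 and Pi16, a marker of adventitial fibroblasts, by 1.86, while Col14a1 was called lower (-1.01), a call lost without control replicate 2, control replicate 3, treated replicate 1 or treated replicate 3. Of 9 pericyte and smooth muscle genes 4 rose, smooth muscle myosin (Myh11) by 2.96 and the channel subunits Kcnj8 by 1.79 and Abcc9 by 1.48. Among 25 TGF-beta and BMP pathway genes 3 rose, the activin antagonist Fst (2.13), Id2 (1.27) and Tgfbr3 (1.07), and 3 fell, Smad6 (-1.14), Bmp2 (-1.06) and Id1 (-1.01). Over all genes tested, 9.65% were called higher and 5.96% lower. Of 10 genes of epithelial-mesenchymal transition 3 rose, the transcription factors Prrx1 (1.41), Zeb2 (1.31) and Snai1 (1.13), and 1 was called lower, Cdh1, a call lost without control replicate 2, treated replicate 2 or treated replicate 3. Among 18 integrins, Itgb7 (2.24) and Itga4 (1.45), both of leukocytes, were among the 4 that rose, and Itga3, of epithelium, was the 1 that fell (-1.49). Without control replicate 1 or treated replicate 3, 2 integrins were called higher. The number of TGF-beta and BMP genes called lower was 1 without treated replicate 1.

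Endothelial genes were not called in the reported fit. None of 20 tested passed by edgeR, with 9 at an unadjusted p-value below 0.05, none called by limma-voom and 5 called higher by DESeq2. The list median was 1.04, and edgeR called 5 genes higher when only the 2 TP1 groups were fitted, 3 without treated replicate 3 and 2 with the 7SL share as a covariate. Pecam1, an adhesion molecule of endothelium, was at 20.3, 31.8 and 34.4 CPM in controls and at 79.0, 104 and 31.1 CPM in treated tumors (log2 1.31, adjusted p = 0.087), so that treated replicate 3 lay among the controls. The VEGF receptors Flt1 (-0.86) and Flt4 (-0.78) had negative values.

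Adipocyte genes had the largest list median, 4.69, with 16 of 19 tested called higher, but the rise rested on 1 tumor. Adiponectin (Adipoq) was at 0.037, 0.377 and 0.486 CPM in controls and at 2.88, 75.9 and 1.12 CPM in treated tumors (log2 6.45, SE 1.72, adjusted p = 0.0098). Car3, carbonic anhydrase of fat, was at 2.58, 6.00 and 9.05 CPM and then at 32.3, 708 and 11.2 CPM (log2 5.41). Treated replicate 2 was far above the other treated tumors for both genes, although these also exceeded the controls. Without this tumor none of the 19 genes was called higher, and the log2 fold change of Adipoq was 2.74 (adjusted p = 0.172). Only 1 was called by limma-voom, 4 without control replicate 1, and 10 without control replicate 2 or 3. Cfd, the complement protease made by fat, was called (log2 6.82) with overlapping groups, at 1.35 CPM in control replicate 3 and 1.12 CPM in treated replicate 3.

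Chemokines rose widely. Of 27 chemokine ligands tested 16 were higher and none lower, with a median log2 fold change of 1.85. Ccl9, a macrophage-derived chemokine for myeloid cells, was at 11.5, 24.4 and 19.7 CPM in controls and at 247, 129 and 224 CPM in treated tumors (log2 3.43, SE 0.51, adjusted p = 0.00018). Ccl6, from a neighboring gene, was at 16.1, 29.4 and 35.0 CPM and then at 352, 243 and 255 CPM (log2 3.40). Cxcl12, made by stromal cells and bound by CXCR4, was at 35.0, 44.9 and 61.9 CPM and then at 262, 179 and 424 CPM (log2 2.61, SE 0.34, adjusted p = 6.8e-05). The groups were well separated for these 3. Cxcl2, which draws neutrophils through CXCR2, was at 0.737, 1.68 and 1.46 CPM and then at 26.2, 5.01 and 52.3 CPM (log2 4.43, SE 1.20, adjusted p = 0.011, and 0.0507 without control replicate 1). Cxcl3 rose by 4.30, the eosinophil chemokine Ccl11 by 3.53, Ccl3 by 3.51, Ccl22 by 2.75, Ccl5 by 2.45, Ccl7 by 2.07 and Cxcl1 by 1.26. Of 18 chemokine receptors 4 rose, the eosinophil receptor Ccr3 by 4.01, the neutrophil receptor Cxcr2 by 2.35, Ccr4 by 2.12 and Ccr1 by 1.02. The value of Ccr3 rests on few counts, at 0, 0.0419 and 0.104 CPM in controls and at 0.569, 1.39 and 0.666 CPM in treated tumors. Cx3cr1 went the other way without overlap but was not called (log2 -1.38, adjusted p = 0.088). DESeq2 called 1 receptor lower, as did edgeR when only the 2 TP1 groups were fitted or with the acinar mean as a covariate. Without control replicate 1, 8 ligands and 2 receptors were called, and without treated replicate 3, 2 receptors.

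Inflammatory cytokines and growth factors rose in part, with 8 of 17 tested called higher, none called lower and a median of 1.17. The treated tumors were all above the controls for 11 and all below for 2, Vegfa and Lif. Vegfa, the member with most counts, was at 456, 351 and 421 CPM in controls and at 293, 160 and 203 CPM in treated tumors. Its log2 fold change was -0.91 (adjusted p = 0.11), and that of Lif -0.59 (adjusted p = 0.093). Il33, an alarmin of stromal nuclei, was at 70.5, 73.0 and 73.3 CPM in controls and at 287, 166 and 427 CPM in treated tumors (log2 2.02, SE 0.35, adjusted p = 0.00055), without overlap. Il12b rose by 3.50, the EGF receptor ligand Ereg by 2.43, oncostatin M (Osm) by 2.24, Tnf by 1.85, Il6 by 1.71 and Hgf by 1.55. The value of Il12b rests on few counts, at 0.0369, 0.168 and 0.139 CPM in controls and at 0.469, 2.49 and 1.04 CPM in treated tumors. Osm and Ereg lost their calls without treated replicate 3, at 1.91 and 1.70. The count was 4 without control replicate 1, 5 without control replicate 2 and 4 without treated replicate 3. Of 26 immediate-early genes 7 rose (median 0.44), among them the stress factor Atf3 (1.89), Nr4a3 (1.88), Egr2 (1.67), the phosphatases Dusp2 (2.05) and Dusp1 (1.3) and Fos (1.14). Of 16 NF-kB pathway genes 2 rose, a share near the 9.65% of all genes called higher, with a list median of 0.50. The 2 were Tnfaip2 (1.62) and Traf1 (1.02), and 1 was called without control replicate 1, control replicate 3 or treated replicate 3. Among 14 genes of necroptosis, pyroptosis and inflammasomes 3 rose, the sensors Nlrp3 (1.89) and Zbp1 (1.53) and the cytokine Il1b, while Il18 fell by 1.18. Il1b was at 9.48, 11.4 and 15.5 CPM and then at 37.7, 15.4 and 75.8 CPM, with treated replicate 2 at the level of the highest control (log2 1.82, and 1.13 with adjusted p = 0.0645 without treated replicate 3). Of these 14 genes 1 was called higher without treated replicate 3.

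Neutrophil and immature myeloid genes were higher, 12 of 16 tested with none lower and a median of 2.35. Their sum was 112, 193 and 220 CPM in controls and 1267, 455 and 1386 CPM in treated tumors, of which Mmp9 gave a large share. Clec4d, a C-type lectin receptor of myeloid cells, was at 2.10, 1.72 and 2.57 CPM and then at 43.0, 11.4 and 52.1 CPM (log2 4.05, SE 0.69, adjusted p = 0.00049). S100a9, a subunit of calprotectin and abundant in neutrophils, was at 0.959, 1.93 and 2.77 CPM and then at 10.7, 4.90 and 21.6 CPM (log2 2.71, SE 0.62, adjusted p = 0.0041). No control reached a treated tumor for either gene. Slfn4 rose by 3.95, Clec4e by 3.50, S100a8 by 2.5, the G-CSF receptor Csf3r by 1.97, Trem1 by 1.93 and Lcn2 by 1.38. The call of Lcn2 was lost whichever tumor but control replicate 3 was left out (adjusted p = 0.0527 to 0.145).

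Monocyte and macrophage genes included some of the largest rises, 11 of 31 being higher and none lower (median 0.89). Gpnmb, a lysosomal glycoprotein of lipid-laden macrophages (chr6:49036546-49070929, plus strand), was at 4.57, 1.59 and 1.80 CPM in controls and at 189, 26.1 and 157 CPM in treated tumors (log2 5.54, SE 0.75, adjusted p = 9.6e-05). Itgam, the integrin chain CD11b of myeloid cells, was at 73.4, 91.7 and 92.3 CPM and then at 363, 249 and 306 CPM (log2 1.83, SE 0.42, adjusted p = 0.0037). Cd14, the lipopolysaccharide co-receptor, was at 29.1, 36.9 and 31.4 CPM and then at 186, 81.6 and 204 CPM (log2 2.28). Treated and control tumors were separate for each. Folr2, of resident macrophages, rose by 2.65, Chil3 by 2.64, the scavenger receptor Msr1 by 2.16, Cd68 by 1.94 and the lipid receptor Trem2 by 1.61. Outside the list, the fatty acid transporter Cd36 rose from 5.12, 8.64 and 8.95 CPM to 302, 148 and 212 CPM (log2 4.86, SE 0.77, adjusted p = 0.0003), Acod1, which makes itaconate in activated macrophages, from 1.14, 1.51 and 1.70 CPM to 30.2, 8.66 and 112 CPM (log2 5.11), and the proton pump subunit Atp6v0d2 from 0.332, 1.26 and 0.971 CPM to 33.8, 4.37 and 34.3 CPM (log2 4.82). The summed list was at 8320, 10810 and 12020 CPM in controls and at 19590, 12550 and 14400 CPM in treated tumors, but most of each sum was fibronectin (Fn1), which is also a matrix gene.

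Complement and acute phase genes rose, 15 of 25 tested with none lower and a median of 1.28. Factor B (Cfb), of the alternative pathway, was at 14.9, 23.1 and 20.9 CPM in controls and at 173, 249 and 82.9 CPM in treated tumors (log2 3.10). Saa3, an acute phase apolipoprotein, was at 44.8, 28.7 and 31.2 CPM and then at 173, 237 and 249 CPM (log2 2.65). Haptoglobin (Hp) was at 21.8, 50.7 and 47.0 CPM and then at 128, 549 and 151 CPM (log2 2.79), highest in the tumor with most fat RNA. None of these overlapped between groups. The terminal component C7 rose by 3.84, pentraxin Ptx3 by 3.15, Lrg1 by 2.74 and properdin (Cfp) by 2.10. C3, the central component, was at 3479, 4287 and 4898 CPM in controls and at 7580, 8884 and 6703 CPM in treated tumors and did not reach the fold required. The count was 8 without treated replicate 2.

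T cell genes rose too, from low levels and with calls that rested on single tumors, whereas few B cell and plasma cell genes passed. Of 20 T cell genes 13 were higher and none lower (median 1.69), which became 4 without control replicate 1, 7 without control replicate 3, 4 without treated replicate 2 and 1 in the single fit over both models. The interleukin 7 receptor (Il7r) was at 2.36, 6.25 and 4.34 CPM in controls and at 27.0, 18.8 and 29.6 CPM in treated tumors (log2 2.55, SE 0.31, adjusted p = 4e-05). Cd3e, of the T cell receptor complex, was at 1.84, 4.95 and 3.19 CPM and then at 5.76, 17.7 and 6.75 CPM (log2 1.6, SE 0.43, adjusted p = 0.01). Treated tumors exceeded controls for both, and treated replicate 2 was the lowest treated tumor for Il7r but the highest for Cd3e. Of 14 regulatory T cell and checkpoint genes 8 rose (median 1.38), among them Tigit (2.30), Ctla4 (2.15) and Foxp3 (2.01), and 5 were called without control replicate 1 and 3 without treated replicate 2, when Foxp3 was at 1.38 (adjusted p = 0.0624) and Tigit at 1.64 (adjusted p = 0.0619). The ligand PD-L1 (Cd274) was at 9.95, 16.5 and 15.2 CPM and then at 37.9, 31.2 and 41.5 CPM (log2 1.41). Of 14 B cell genes 2 rose, Cd22 (1.73) and Fcrla (1.10), and neither remained without control replicate 1 or without treated replicate 2. Of 9 cytotoxic and NK genes 2 rose, of 15 dendritic cell genes 4, of 7 mast cell and eosinophil genes 3 and of 14 plasma cell genes 1. Without control replicate 1 or without treated replicate 2, 0 of the cytotoxic and NK genes were called, dendritic cell genes numbered 1 without control replicate 1 or treated replicate 3, 2 without treated replicate 2 and 0 in the single fit over both models, and mast cell and eosinophil genes 1 without control replicate 2 or treated replicate 2 and 5 without treated replicate 3. Plasma cell genes numbered 2 without treated replicate 1 or 2.

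Interferon-stimulated genes rose in part, and most antigen presentation genes did not pass the test. Of 32 interferon-stimulated genes 6 rose (median 0.93), Ifit3b by 2.59, Oas3 by 2.48, Cmpk2 by 2.05, the transcription factor Irf7 by 1.89 and Oas1a by 1.78 among them, and the count ranged from 1 without control replicate 1 to 14 when only the 2 TP1 groups were fitted, with 2 without control replicate 3 or treated replicate 3, 3 without treated replicate 2 and 10 by DESeq2. The interferon-stimulated response element, searched by its core on both strands, was present in 15 of 28 promoter windows of 24 of these genes (53.6%) and in 3.32% of the windows of the genes tested. None of 18 MHC class I presentation genes was called by edgeR, with 1 at an unadjusted p-value below 0.05 and none called by limma-voom or DESeq2, and the groups overlapped for all 18. H2-D1, a classical class I heavy chain, was at 871, 1518 and 1230 CPM in controls and at 1468, 2057 and 1712.5 CPM in treated tumors (log2 0.53, adjusted p = 0.17). Of 14 genes of MHC class II presentation and costimulation 2 rose, the costimulatory ligand Cd80 and the lysosomal protease Ctss (1.21), with a list median of 0.06. Cd80 was at 0.590, 2.18 and 1.04 CPM in controls and at 9.41, 9.68 and 13.4 CPM in treated tumors (log2 3.10). Of these 14 genes 1 was called without control replicate 1, control replicate 3, treated replicate 1 or treated replicate 3.

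Genes linked to the drugs themselves showed mixed changes. Of 20 tubulins and microtubule regulators, the targets of paclitaxel, 3 rose and 2 fell with a median of 0.03. The beta tubulin Tubb6 was at 52.6, 52.1 and 60.5 CPM in controls and at 139, 91.4 and 160.4 CPM in treated tumors (log2 1.24). Stathmin (Stmn1), which destabilizes microtubules, was at 187, 178 and 203 CPM and then at 61.3, 62.2 and 34.2 CPM (log2 -1.85). Both were separate between groups, although the adjusted p-value of Tubb6 was 0.052 to 0.0628 without control replicate 1, control replicate 2 or treated replicate 3. Tuba4a rose by 1.41, and Tuba1b did not pass (-0.21). Of 12 drug transporters 4 rose and none fell. The P-glycoprotein genes, whose product exports paclitaxel, moved a little past the fold required, Abcb1a from 6.89, 13.1 and 9.68 CPM to 23.4, 19.5 and 20.8 CPM (log2 1.11) and Abcb1b from 28.5, 25.1 and 20.6 CPM to 52.6, 36.8 and 61.2 CPM (log2 1.02, adjusted p = 0.0054). The genes are related neighbors, and whether reads were shared between them was not tested. Leaving out control replicate 1 took Abcb1a to 0.90, and leaving out treated replicate 3 took Abcb1b to 0.85. Abcc4 rose by 1.10, and 2 transporters were called without treated replicate 3.

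Oxidative stress genes rose selectively, 5 of 23 NRF2, glutathione and metallothionein genes being higher and none lower (median 0.48). Slc7a11, the cystine importer that feeds glutathione synthesis (chr3:49892526-50443614, minus strand), was at 4.46, 4.36 and 4.34 CPM in controls and at 90.4, 17.5 and 115 CPM in treated tumors (log2 4.08, SE 0.66, adjusted p = 0.00033). Gpx3, a secreted glutathione peroxidase, was at 22.0, 39.1 and 35.4 CPM and then at 209, 234 and 247 CPM (log2 2.84). The controls of Slc7a11 were nearly identical while its treated tumors spread widely, and neither gene overlapped. Heme oxygenase (Hmox1), at 41.8, 40.9 and 55.1 CPM and then at 277, 52.7 and 187 CPM, overlapped (log2 1.90), and its adjusted p-value was 0.0585 to 0.0898 without control replicate 1, control replicate 2 or treated replicate 1. Hypoxia and glycolysis genes were lower for 4 of 27 (median -0.20). Carbonic anhydrase 9 (Car9), a HIF target, was at 71.0, 54.5 and 54.4 CPM in controls and at 12.2, 10.1 and 6.58 CPM in treated tumors (log2 -2.64), and Ndrg1 (-1.17), Egln3 (-1.09) and the lactate exporter Slc16a3 (-1.0) fell with it. The count was 2 without control replicate 1, control replicate 3, treated replicate 2 or treated replicate 3.

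Most lipid and sterol synthesis genes did not pass the test. Of 27 fatty acid genes 5 rose and none fell, and 3 rose without treated replicate 2. Plin2, which coats lipid droplets, was at 76.0, 74.1 and 81.8 CPM in controls and at 472, 161 and 307 CPM in treated tumors (log2 2.02), lowest in the tumor with most adipocyte RNA. Of 22 cholesterol synthesis genes 3 fell, among them Stard4 (-1.06) and Sqle (-1.0), and the count was 0 without treated replicate 3 and 1 without control replicate 2, control replicate 3 or treated replicate 1. Of 18 genes of nucleotide and one-carbon synthesis Impdh1 was called higher (1.24), a call lost without any 1 of the controls or without treated replicate 1 or 3, while Shmt1 (-1.18) and Psat1 (-1.13) fell. Of 24 genes of the unfolded protein response 2 rose, a share near the 9.65% of all genes called higher. The heat shock list had a median of -0.42 and no call in 15 genes, with 5 at an unadjusted p-value below 0.05 by edgeR and none called by limma-voom or DESeq2. Hsp90ab1 was at 1495, 1415.5 and 1651 CPM and then at 1059, 1001 and 932.5 CPM (log2 -0.61, adjusted p = 0.034, below the fold required). Of 20 ribosome biogenesis genes none was called by edgeR, limma-voom or DESeq2, although 12 had an unadjusted p-value below 0.05 and the median was -0.42. For 34 ribosomal protein genes (median -0.25) and 36 respiratory chain genes none was called by edgeR, limma-voom or DESeq2 and 0 had an unadjusted p-value below 0.05.

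**Figure D4:**
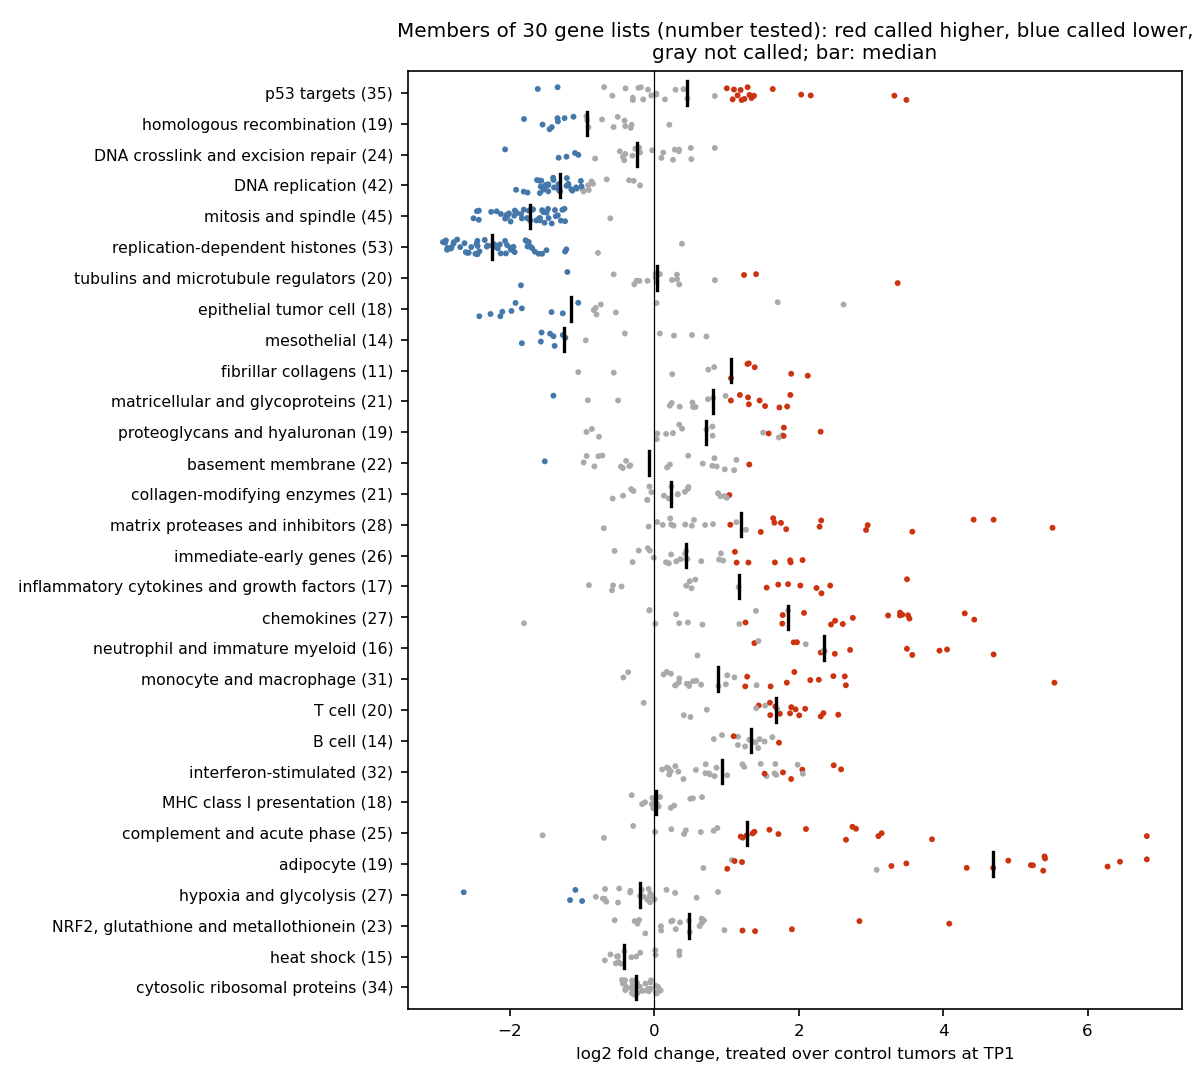
Log2 fold changes at TP1 (x axis) of the tested members of 30 gene lists (rows), one point per gene, red called higher, blue called lower and gray not called, with a bar at each list median. Histones, mitosis and DNA replication lie to the left with medians of -2.24, -1.72 and -1.31, and adipocyte, neutrophil, chemokine and T cell lists to the right.

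The TP1 response was compared with that at TP2 to ask which changes differed between 1 and 7 days after the last dose. The TP2 tumors were other mice with their own controls. At TP2, 2408 genes (14.8%) were called higher and 1561 (9.61%) lower. Of the 1567 genes higher at TP1, 972 (62.0%) were also higher at TP2, which is 40.4% of the genes higher at TP2, and 35 were called lower. Of the 968 lower at TP1, 586 (60.5%) were lower at TP2 (37.5% of those lower at TP2) and 3 were higher. The difference between the responses, tested as an interaction, was called higher at TP1 for 547 genes (3.37%) and lower for 582 (3.58%). In the first set the median fold change (log2) was 0.84 for TP1 and -1.0 for TP2, and in the second -0.27 and 1.13. These counts rested on single tumors: 144 genes were called in all without TP1 treated replicate 1, 262 without TP1 control replicate 1 and 336 without TP2 control replicate 2, and 252 when only the 4 groups compared were fitted. The length and GC offset gave 354 higher and 1099 lower, and the replicate block 556 in all.

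Inflammatory and protease genes and Cdkn1a were among those with a larger response at TP1. Cdkn1a rose by 3.49 at TP1 and had a value of 0.46 at TP2 (log2), a difference of 3.03 (SE 0.83, adjusted p = 0.033), and for Mdm2 the difference was 0.79 (adjusted p = 0.041, below the fold required). Over the 35 p53 targets 2 differences were called higher. For S100a9 the response was 2.71 at TP1 and -2.85 at TP2, a difference of 5.56 (SE 0.87, adjusted p = 0.011). TP2 tumors carried 3.01, 8.53 and 1.79 CPM of S100a9 in controls and 0.883, 0.347, 0.675 and 0.554 CPM after treatment, so that the order of treated and control tumors was the opposite of that at TP1. The complement C5a receptor C5ar1 had values of 1.72 at TP1 and -0.51 at TP2, where the groups overlapped, and its TP1 tumors were at 21.9, 30.4 and 28.1 CPM in controls and at 99.6, 57.6 and 107 CPM after treatment. Cxcl2 (4.43 and -3.14) and Timp1 (1.66 and -2.23) also differed, as did Mmp12 (5.51 and 0.32, adjusted p of the difference 0.016) and Slc7a11 (difference 4.32, adjusted p = 0.013). Col3a1 had a larger response at TP1 by 1.25 (adjusted p = 0.035) and Vcan by 1.82 (adjusted p = 0.022). By list, the difference was called higher at TP1 for 17 of 27 hypoxia genes, 14 of 28 proteases, 13 of 16 neutrophil genes, 13 of 23 NRF2 genes, 12 of 27 chemokines, 12 of 31 macrophage genes and 15 of 20 pancreatic acinar genes. The TP2 controls were uneven for several of these lists. Acinar sums in them were 2580, 18.1 and 444 CPM, and TP2 control replicate 2 was the highest for neutrophil genes (252, 1014 and 152 CPM) and for hypoxia and glycolysis genes (9775, 23500 and 8551 CPM).

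Other lists had similar or larger medians at TP2. List medians at TP1 and TP2 were -1.72 and -2.17 for mitosis, -2.24 and -2.25 for histones, and 0.46 and 0.48 for p53 targets, although 16 of these were called higher at TP1 and 3 at TP2. For T cell genes they were 1.69 and 3.11, with 13 and 18 of 20 called higher, and for B cell genes 1.33 and 3.40. Interferon-stimulated genes had medians of 0.93 and 1.33, with 6 and 20 of 32 called higher, and MHC class II genes 0.06 and 1.08. The test of the difference itself was called lower at TP1 for 2 of 20 T cell, 2 of 14 B cell, 0 of 32 interferon-stimulated and 2 of 14 MHC class II genes, so that most of these differences between time points did not pass. For Mki67 the difference between time points was -0.10 (SE 0.22, adjusted p = 0.77).

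**Figure D5:**
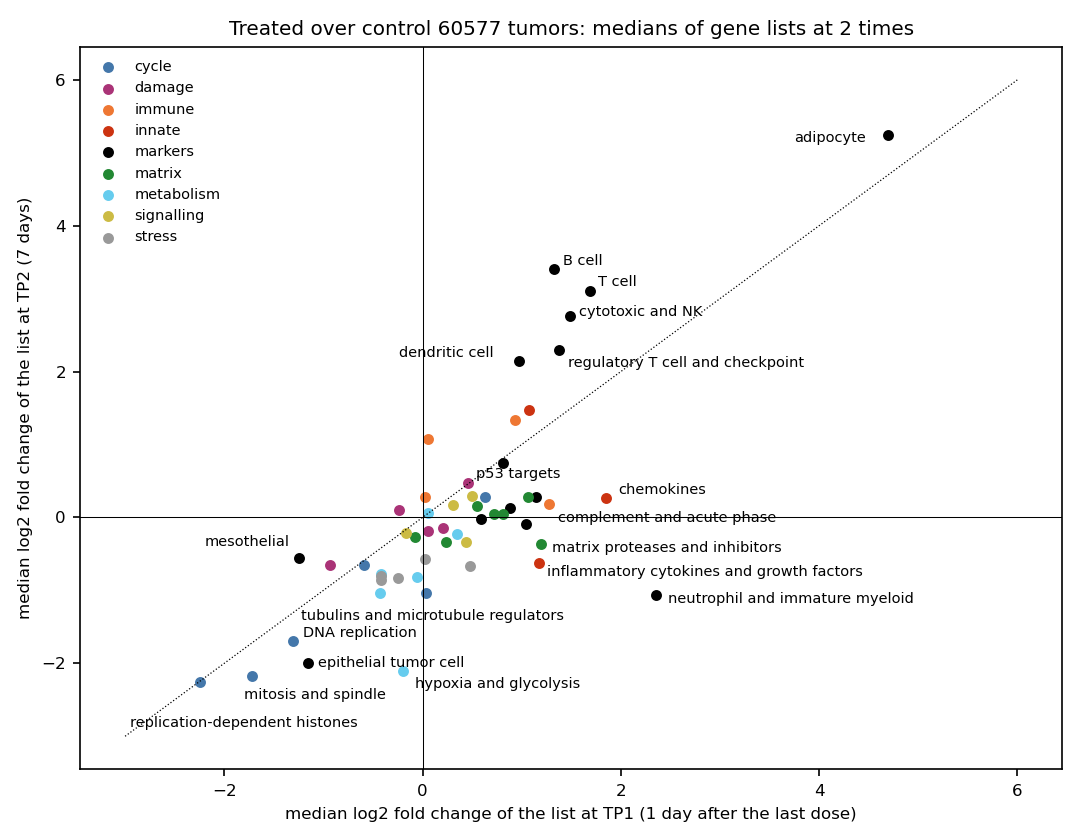
Median log2 fold change of each gene list with at least 9 tested genes at TP1 (x axis) and at TP2 (y axis) in 60577, without the pancreatic acinar list, with a dotted line where both are equal. Neutrophil, cytokine and hypoxia lists lie below the line (2.35 and -1.06 for neutrophil genes), T cell and B cell lists above it, and histones on it.

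The same regimen at the same interval was compared with HGS2, a model described by the study as responding weakly. HGS2 tumors at TP1 showed 0 genes called by edgeR, with 413 at an unadjusted p-value below 0.05, 0 called by limma-voom and 1 lower by DESeq2. The genes higher in 60577 had a median log2 fold change of 0.27 in HGS2 and those lower in 60577 of -0.17. The difference between models was called higher in 60577 for 162 genes (0.997%), of which 153 were called higher in 60577 alone, and lower for 73 (0.449%), of which 60 were. This count fell to 11 when only the 4 TP1 groups were fitted, to 62 without 60577 TP1 control replicate 1 and to 92 without 60577 TP1 treated replicate 1, and it rose to 647 without HGS2 TP1 control replicate 2. The split turned too, to 244 higher and 391 lower without HGS2 TP1 control replicate 1. Without HGS2 TP1 control replicate 2 it was 313 and 334, so that both size and balance are uncertain. HGS2 TP1 control replicate 3 stood apart, with the pancreatic elastase gene Cela1 at 5232 CPM against 8.84 and 17 CPM in the other HGS2 controls, and without it the count was 237.

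Ugt1a7c, a glucuronosyltransferase, was at 6.05, 8.51 and 8.18 CPM in 60577 controls and at 58.6, 35.5 and 55.2 CPM in treated 60577 tumors (log2 2.72). In HGS2 the controls were at 66.6, 170.2 and 303 CPM and the treated tumors at 137, 92.6 and 105 CPM, overlapping (log2 -0.69), and the difference between models was 3.40 (SE 0.53, adjusted p = 0.0038). Slc7a11 (difference 4.39, adjusted p = 0.030) and Col3a1 (2.06, adjusted p = 0.045) differed as well, as did the corepressor Tle4 in the other direction, with -1.28 in 60577 and 0.31 in HGS2 (adjusted p = 0.00039). For Mdm2 (0.84, adjusted p = 0.036) and Bax (0.99, adjusted p = 0.031) the difference was below the fold required. Cdkn1a was at 41.3, 20.2 and 24.7 CPM in HGS2 controls and at 64.3, 90.5 and 79.3 CPM in treated HGS2 tumors. Its groups did not overlap in HGS2 either, the log2 fold change there was 1.44, and the difference from 60577 was 2.08 (SE 0.80, adjusted p = 0.16). Mmp12 (4.44, adjusted p = 0.075), Gpnmb (4.91, adjusted p = 0.050) and Mki67 (-1.38, adjusted p = 0.12) likewise did not pass the test of the difference. Krt18 had nearly equal values, -2.11 in 60577 and -2.13 in HGS2, with a difference of 0.03 (SE 1.00, adjusted p = 0.99), although HGS2 controls ranged from 5.56 to 66.9 CPM.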

How the data were processed

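Bulk RNA sequencing of 34 omental tumors and 4 cell line libraries was available, of which the 6 tumors of 60577 at TP1 were analyzed here. According to the study's methods and the submitters' processing notes, the authors trimmed reads with Trim Galore 0.6.5, mapped them to GRCm38 with STAR 2.7.0f and estimated gene abundance with RSEM. What was deposited are the authors' expected counts, unfiltered and without scaling, for 55487 genes, and these were rounded to whole numbers here. Symbols, types and positions came from GENCODE M21, which held 55227 of the genes, and 0 value columns were without a sample.

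The filter kept genes reaching 1 CPM in 25% or more of 33 tumors (16241, of which 13926 protein coding), HGS2 TP3 treated replicate 1 being left out because the study's supplementary sample table does not list it. TMM scaling and edgeR 4.0.16 quasi-likelihood tests (R 4.3.3) were used on all 5 groups of 60577 (17 tumors), which share the estimate of spread, with treated minus control at TP1 as the contrast. Interactions gave the difference from TP2 (same fit) and from HGS2 (both models, 10 groups, 33 tumors). Standard errors are the fold change divided by the root of the F statistic. Calls required a Benjamini-Hochberg adjusted p-value below 0.05 over all genes and a log2 fold change above 1 in size. The labels give each tumor as a separate sample and name no mouse, and the study's figure legends describe 1 tumor per mouse.

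Members and gene lists were chosen with earlier results of these data known, so lists are given by counts and medians without a test. Genes were named by rule: from each list up to 4 called members with the largest fold change and the member with most counts; over all genes, 15 in each direction with the smallest adjusted p-values and 10 with the largest changes; and 10 for each interaction. Further members, among them Mdm2, Bax, Itgam, Ccl9, Mki67, Il33 and Pdgfra, were named after their values were seen. Promoters came from RefSeq (GRCm38.p6) by symbol, for 11257 of the 16230 symbols tested. On counts drawn with known changes at log2 2, the TP1 test recovered 93.5% of 200 changed genes with 4 false calls among 16241 genes. At log2 1.5 it recovered 78%. For differences of log2 2, the test against TP2 recovered 80.5% with 11 false calls, and that against HGS2 58.5% with 5. Alternatives were other scaling, filters, limma-voom (limma 3.58.1), DESeq2 1.42.0, a length and GC offset (conditional spline with 5 degrees of freedom), covariates, other sets of groups and leaving out each tumor. Figures were drawn with Python. A few members of the lists are counted but not reported by name here.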

Additional observations from a re-analysis of the deposited data

Results flagged for a closer look

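For 20 genes the TP1 response of 60577 differed between time points or models by a test of the difference itself, the 10 with the smallest adjusted p-value (edgeR, interaction) of each. No explanation was tested, and the genes were selected for this difference.

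Between time points, the calprotectin subunit S100a9 stood higher at TP1 with the opposite sign at TP2 (difference 5.56, from 2.71 at TP1 and -2.85 at TP2). So did the siderophore-binding protein Lcn2 (4.38, from 1.38 and -3.0), the C5a receptor C5ar1 (2.22, from 1.72 and -0.51) and the activin subunit Inhbb (1.51, from 0.77 and -0.74). The plasma protein Ahsg overlapped between groups at TP1 and was negative at TP2 (3.38, from 0.09 and -3.28). Anpep was higher at both (1.70, from 2.41 and 0.71). The other 4 were lower at TP1 than at TP2: the septin Sept3 (-1.84, from 0.07 and 1.92), Rabgap1l (-1.64, from -0.12 and 1.51), the polarity gene Pard3b (-1.94, from -1.50 and 0.43) and the unnamed locus Gm37006 (-2.77, from 0.36 and 3.13). Sept3 was flat at TP1, at 3.24, 2.77 and 3.16 CPM in controls and at 2.71, 3.58 and 3.37 CPM in treated tumors, but at TP2 its treated tumors, at 9.83, 7.74, 7.32 and 8.99 CPM, were above controls at 2.06, 2.35 and 2.31 CPM. Pard3b fell at TP1 from 68.5, 64.3 and 57.6 CPM to 19.2, 28.9 and 19.1 CPM and overlapped between groups at TP2.

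Between models, the 60577 response exceeded that of HGS2 for the brush border glucosidase Mgam (7.79, from 5.13 in 60577 and -2.67 in HGS2), Ugt1a7c (3.40, from 2.72 and -0.69), Htatip2 (2.575, from 2.47 and -0.10), Ttc12 (2.44, from 2.06 and -0.36), Prickle1 (1.945, from 1.6 and -0.34) and the small GTPase Rap2b (1.35, from 1.44 and 0.10). Mgam was at 0, 0.210 and 0.0694 CPM in 60577 controls and at 2.68, 0.942 and 6.25 CPM in treated tumors, so its fold change rests on few counts, and in HGS2 control replicate 3 stood at 22.6 CPM against 1.84 and 4.81 CPM in the other controls, so that the negative value there rests mainly on that tumor. The response was lower in 60577 for Tle4 (-1.58, from -1.28 and 0.31), the adhesion molecule Igsf9 (-2.31, from -2.0 and 0.33), the N-acetyltransferase Naa40 (-1.235, from -0.85 and 0.40) and the MYB family member Mybl1 (-2.0, from -1.76 and 0.25).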

How the results depend on the processing

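The count at TP1 (2535) stayed within 1.5 times under every alternative but the single fit over both models, which gave 1605 genes (1014 higher, 591 lower), and ranged from 1989 to 2385 with 1 tumor left out. It was 2366 by limma-voom and 2727 by DESeq2. No gene called in the reported fit and named here changed direction in any alternative, and of 220 such genes 160 kept their call in the single fit, 171 without control replicate 1, 191 without treated replicate 2 and 182 without treated replicate 3. Calls lost without control replicate 1 included Car3, Ccl11, Ccl3, Ccl5, Ccr1, Cxcr2, Chil3, Col5a3, Col15a1, Bmp1, Irf7, Ifit3b, Oas3, Cmpk2, Ctss, Pi16, Snai1, Traf1, Zbp1, Abcc9, Egln3, Slc16a3, Impdh1, Psat1 and Topbp1, and those lost without treated replicate 3 included Slfn4, Cdh1, Ndrg1, Sqle, Stard4 and Abcc4. Tgfbr3 was lost without control replicate 2 or 3. The replicate numbers did not pair the tumors: deviations of same-numbered tumors correlated at 0.125, 0.0895 and -0.0613. The fit with the replicate number as a block gave 2379 genes (1425 higher, 954 lower), 2374 with the length and GC offset too.

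The difference from TP2 (1129) was less stable. It was 556 with the replicate block, 240 with the block and the offset, 252 with only the 4 groups, 163 in the single fit over both models and 144 to 2261 with 1 tumor left out, TP2 tumors being left out as an alternative chosen after seeing the data. The length and GC offset alone changed the split from 547 higher and 582 lower to 354 and 1099 and shifted the median over all genes by -0.195, and the single fit gave 119 and 44. DESeq2 gave 1616.

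The difference from HGS2 (235) was 11 with only the 4 TP1 groups, 111 without a filter on low counts, 154 with all 34 tumors, 721 by DESeq2, 398 with the offset (232 higher, 166 lower), 396 with the 7SL share and 491 with acinar genes as a covariate, 209 with the replicate block and 62 to 647 with 1 tumor left out. By limma-voom it was 214 (118 higher, 96 lower). HGS2 alone by other tools was also added after seeing the data. The cause of these shifts was not tested. With 3 tumors a group, changes near the threshold can be missed, and genes under 1 CPM carry few counts.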
